A study of Bos taurus with 30 samples.

Results

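The 200 most abundant transcripts of the bovine hypothalamic arcuate nucleus were taken from a table of 27607 genes by 1 rule. The members were chosen by their median value over the 30 libraries, and the 200 genes with the highest medians were kept, which is 0.724% of the table. The values were CPM (reads of a gene relative to all reads of its library) scaled by TMM factors (trimmed mean of M-values, a per-library correction for composition), and are called normalised values below. They are not divided by transcript length, so the order is one of reads drawn, not of molecules. The last genes inside the limit, ENSBTAG00000017299 and ENSBTAG00000020106, had medians of 456.73 and 455.99. The first outside it, ENSBTAG00000014265 and ENSBTAG00000001648, had medians of 455.79 and 455.69, so the limit fell in a continuous slope.

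Tissue came from 30 Holstein-Friesian bull calves kept on 1 of 2 diets between weeks 2 and 12 of life. In the high group (HI, n = 15), the daily ration was 1.5 kg of milk replacer in 10 l with concentrate to appetite, for a target gain of 1.0 kg per day. In the moderate group (MOD, n = 15), it was 0.5 kg of milk replacer in 4 l and 0.5 kg of concentrate, for a target gain of 0.5 kg per day. All calves were of 1 breed and sex, and each library is 1 calf, named by group and replicate (HI 1 to HI 15, MOD 1 to MOD 15). The question was whether feeding level in early life alters transcription in a region that relays metabolic state to reproductive signalling.

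In polyadenylated RNA of brain, a few genes usually draw a large part of the reads. Transcripts of the mitochondrial genome, ribosomal proteins, the cytoskeleton, synapses and myelin are commonly among them, and their balance follows the mix of neurons, glia and myelinated fibres in the piece of tissue taken. In the arcuate nucleus, neurons that sense leptin, insulin and ghrelin lie beside the median eminence, where nerve endings, glial cells of the ventricle wall and portal vessels meet. The table gives Ensembl identifiers without names, and 0 of them matched the RefSeq gene table used here, so the roles of the 200 genes are not given. For the same reason the labelled tissue was not checked against marker genes, and no transcript or promoter sequence is shown.

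The libraries held 15128646 to 29801795 recovered reads, with a median of 20395296. At that depth counting error was small for these genes. The median was 16038 reads per gene and library, and the lowest was 834 reads, for ENSBTAG00000011333 in HI 2. Counting error made up a median of 0.114% of the variance between libraries and at most 1.56% for any of the 200, against a median of 2.72% over the 15757 genes that entered the test. Fits with sample quality weights gave 5 libraries the lowest weights over all tested genes, namely HI 2 (0.0406), MOD 12 (0.0965), MOD 2 (0.151), HI 7 (0.241) and MOD 4 (0.302). Results are therefore given for all 30 libraries and for the other 25. A low weight marks a library that deviates from the fit, so a smaller spread in the other 25 follows in part from this choice. In bulk tissue, fewer cells of a type and less RNA per cell cannot be told apart.

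The 200 genes together held a median of 29.01% of the column sum, and the lowest and highest libraries held 19.1% and 33.4%. The slope within the set was steep. The first gene alone took a median of 3.58% of a library, the first 5 took 8.01%, the first 10 took 10.8% and the first 50 took 18.3%. Medians fell from 35599 at rank 1 to 7981 at rank 5, 4257 at rank 10, 1182 at rank 50 and 765 at rank 100, and the first 25 genes made up 50.3% of the summed medians. The value at rank 1 was 78.1 times that at rank 200.

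In HI the share of the 200 genes had a lowest value of 19.2%, a median of 29.1% and a highest value of 32.9%. In MOD these were 19.1%, 28.2% and 33.4%, so the groups overlapped over nearly their whole range. The means were 28.5% ± 3.60 in HI and 27.6% ± 3.55 in MOD (SD, n = 15 each), and the difference of 0.911 percentage points was smaller than the spread within either group. Without MOD 2 the difference was 0.305 points, without HI 7 it was 1.57, and over the 25 libraries it was 0.605 points. The first gene alone took 3.59% ± 0.848 in HI and 3.25% ± 0.629 in MOD (SD, n = 15 each). The first 10 took 10.7% ± 2.43 against 9.90% ± 2.19 (SD, n = 15 each), and both differences were within the spread. These genes are part of the 200, so their direction is not a separate result. The difference was 0.819 points for the first 10 and 0.952 for the first 50, against 0.911 for all 200, so most of it lay in the first 10. No p is given for these sums, because the set was chosen with results known.

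**Figure D1:**
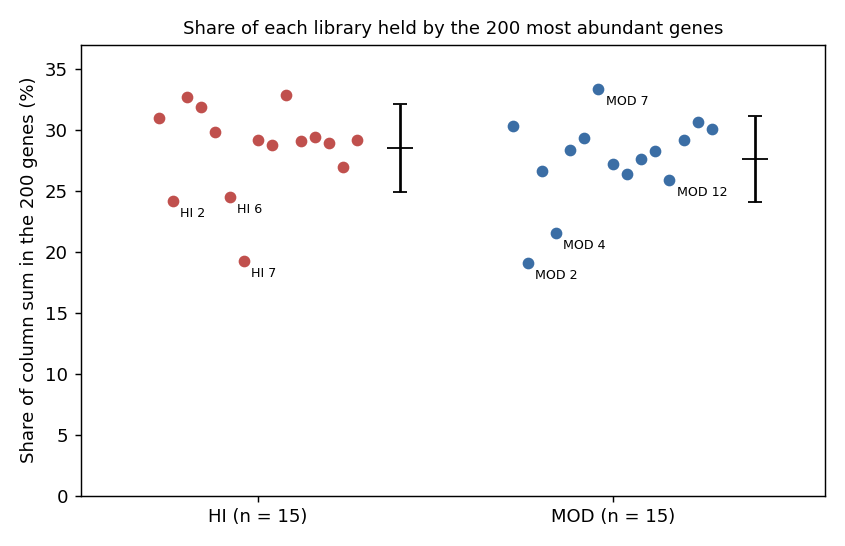
Share of the column sum (%, vertical axis) held by the 200 genes in each library, with the mean and SD of each group as a bar at its right. HI 7, MOD 2 and MOD 4 lie lowest at 19.2%, 19.1% and 21.6%.

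Low shares were found in libraries of both diets. HI 7 held 19.2% and MOD 4 held 21.6% of their sums in the 200 genes, and HI 2 and HI 6 held 24.2% and 24.5%. MOD 2 held 19.1%, and in this library 643 genes stood above 10 times their value in every other library and took 26.5% of the sum. No floor was set for this count, so genes with hardly any reads elsewhere could enter it. The count was not made for the other libraries. Only 1 of the 200 genes, ENSBTAG00000017280, was among those 643. With the 643 genes left out of every library, MOD 2 held 24.2% in the remaining members, against 19.3% to 33.4% (median 29.1%) in the other 29 libraries. What sets MOD 2 apart was not tested.

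The 5 highest genes kept their order in most calves. ENSBTAG00000043561 was the highest gene in 29 of the 30 libraries, ENSBTAG00000043560 held rank 2 in 29 and ENSBTAG00000043584 held rank 3 in 27. In MOD 2, 4 of its 5 highest genes were not among the 5 highest by median, and 1 of those 4 was ENSBTAG00000017280. In 22 libraries the 5 highest genes were the same 5 as by median.

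ENSBTAG00000043561 ranged from 17904 to 48731 in HI, with a median of 36407, and from 21410 to 45865 in MOD, with a median of 31672. ENSBTAG00000043560 ranged from 7608 to 23104 in HI (median 16672) and from 10386 to 25649 in MOD (median 13884). For both genes the groups overlapped over most of their range, and HI 7 was the lowest library. HI 7 was also lowest for ENSBTAG00000043584, ENSBTAG00000043558 and ENSBTAG00000043550, where it held 4802, 3708 and 3559. MOD 7 was highest for ENSBTAG00000043560 and for these 3, with 17976, 14040 and 12972 for the latter. The highest library was at 2.72 times the lowest for ENSBTAG00000043561 and at 3.37 to 3.79 times for the other 4.

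The HI minus MOD difference of these 5 was between 0.08 and 0.12 on the log2(value + 0.5) scale, with standard errors of 0.15 to 0.17. It was 0.10 with a 95% interval of -0.25 to 0.46 for ENSBTAG00000043561 (limma p = 0.551, BH-adjusted p 1.00). For each of the 5, 11 or 12 HI calves of 15 exceeded the median of MOD. In the 25 libraries the differences were 0.13 to 0.18, and that of ENSBTAG00000043561 had an unadjusted limma p of 0.210. Leaving out 1 library gave 0.04 to 0.21 over the 5, from ENSBTAG00000043560 without HI 10 to ENSBTAG00000043558 without HI 7. None of the 5 passed a threshold, and their intervals reached from -0.25 to 0.46 at the widest bounds.

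Rank lists differed between single libraries. Of the 200 genes, 52 were among the 200 highest of every library, 146 were in that list in at least 25 libraries and 11 were in it in fewer than 15. The lowest was ENSBTAG00000020106, the gene at rank 200, which was among the 200 highest of 6 libraries. Over all libraries 514 different genes entered a list of the 200 highest. MOD 2, HI 2, MOD 12, HI 7 and MOD 4 shared 85, 98, 124, 131 and 138 genes with the set, and each of the other 25 libraries shared 167 to 192. Over those 25, 131 members were in every list, and 320 different genes entered one. Medians over HI alone and over MOD alone gave lists of 200 that shared 191 genes. Those medians come from the values that chose the set, so the overlap is a description.

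The genes varied between calves by a median SD of 0.37 on the log2 scale over 30 libraries, with a range of 0.11 to 1.02. Over all 15757 genes tested the median SD was 0.42. With 25 libraries the median fell to 0.22 for the 200 genes and 0.26 for all genes tested. The libraries left out were those of lowest weight, so a fall follows in part from the choice. The first 50 of the 200 had a median SD of 0.42, and the later blocks of 50 had 0.34, 0.35 and 0.35. The 200 genes next in rank had a median SD of 0.33.

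**Figure D2:**
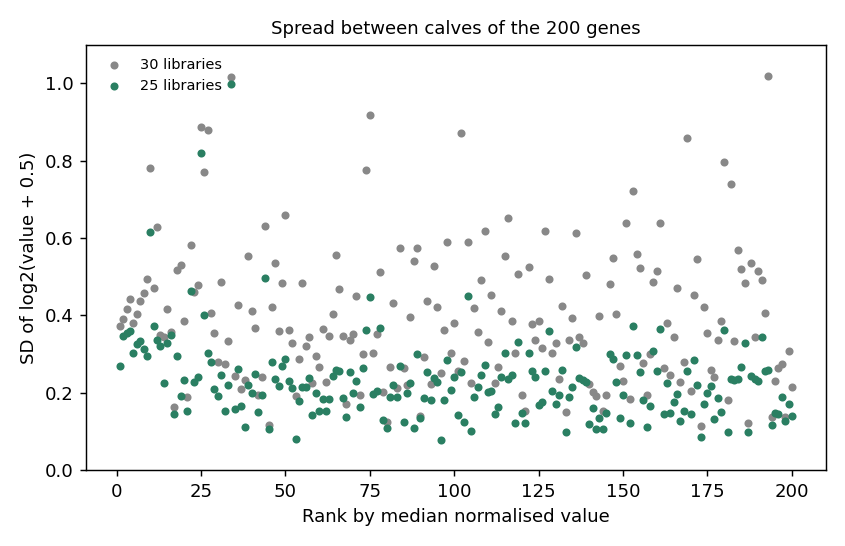
Standard deviation of log2(value + 0.5) between libraries (vertical axis) against rank by median normalised value (horizontal axis) for each of the 200 genes, over all 30 libraries in grey and over 25 in green. The median fell from 0.37 to 0.22 when HI 2, HI 7, MOD 2, MOD 4 and MOD 12, the libraries of lowest weight, were left out. A fall follows in part from that choice. ENSBTAG00000022890 and ENSBTAG00000006977 kept SDs of 1.00 and 0.82.

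A gene was counted as deviating in a library when its value there was over 2-fold from its median in the other 29. By this count 84 of the 200 genes stayed within 2-fold in all 30 libraries. The other 116 left that range somewhere, and 102 of these did so only in HI 2, HI 7, MOD 2, MOD 4 or MOD 12. Among the 25 libraries 186 of the 200 stayed within 2-fold throughout. Over all genes tested these shares were 33.4% with 30 libraries and 75.6% with 25. The libraries set aside were picked because they deviated in these data. That deviations gather in them, and are fewer in the other 25, follows in part from the choice.

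HI 7 held 71 members at over 2-fold below the other libraries and 2 at over 2-fold above. MOD 4 held 41 below and 1 above. HI 2 held members on both sides, with 39 below and 22 above, and MOD 12 did likewise with 20 below and 14 above. MOD 2 held 3 below and 9 above. Every other library held at most 2 below and at most 5 above. Among all genes tested the share below 2-fold was 8.68% in HI 7 and 7.48% in MOD 4, against 35.5% and 20.5% of the members. In HI 2 it was 29.8% against 19.5% of the members, and in MOD 12 it was 20% against 10%. In MOD 7 it was 7.58% against 1%, and in MOD 2 it was 4.84% against 1.5%. The share of genes tested above 2-fold was 19.7% in HI 2, 12.3% in MOD 12 and 11.3% in MOD 2, against 11%, 7% and 4.5% of the members. It was 8.2% in HI 7 and 6.83% in MOD 4, against 1% and 0.5%.

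HI 7 was the lowest library for 50.5% of the 200 genes, against 13% of genes tested. HI 2 was lowest for 20% of the members, a smaller share than the 33.8% of genes tested, and MOD 2 for 8%, against 6.07%. HI 3 was the highest library for 23.5% of the members, against 5.72% of genes tested. HI 2 was highest for 26% of the members, which was close to the 24.8% of genes tested.

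**Figure D3:**
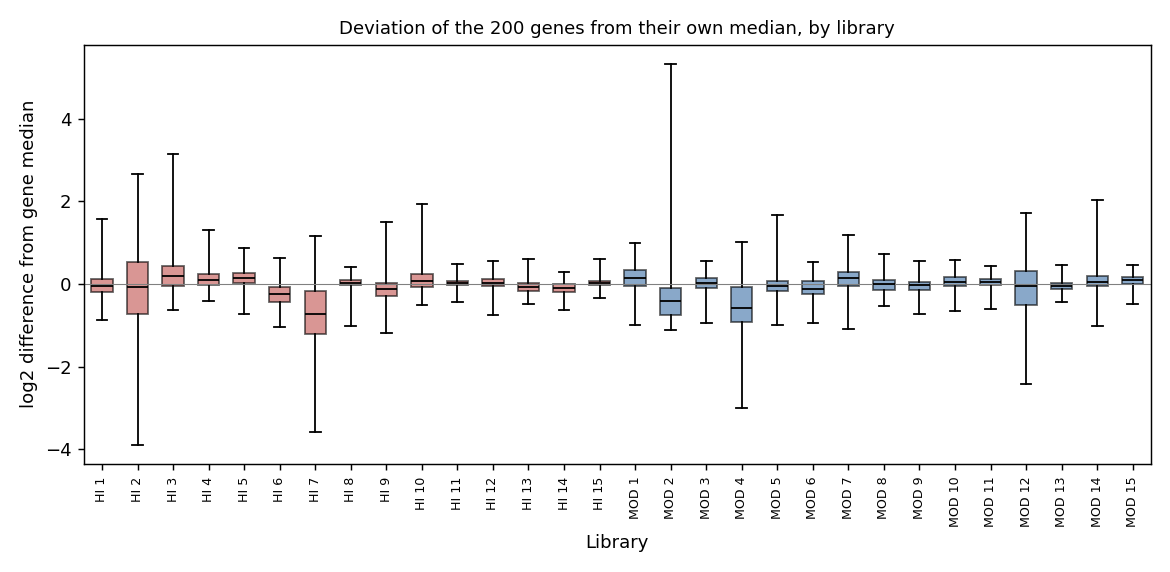
Deviation of the 200 genes from their own median over 30 libraries (log2 scale, vertical axis) in each library (horizontal axis, HI in red and MOD in blue). Boxes span the middle 50% with a line at the median and whiskers reach the extremes. HI 7, MOD 4 and MOD 2 have medians of -0.73, -0.57 and -0.41, and HI 2 and MOD 12 have wide boxes with medians of -0.06.

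The same genes deviated in pairs of libraries that came from different diets. All 41 members that were over 2-fold lower in MOD 4 were also over 2-fold lower in HI 7, where they were 57.7% of the 71. All 20 that were over 2-fold lower in MOD 12 were also lower in HI 2, where they were 51.3% of the 39. All 14 that were over 2-fold higher in MOD 12 were also higher in HI 2, where they were 63.6% of the 22. HI 2 and HI 7, from the same diet, shared 18 lower genes, which is 46.2% of the HI 2 list and 25.4% of the HI 7 list. Among all genes tested, HI 7 and MOD 4 shared 57.8% and 67% of their lower genes, and HI 2 and MOD 12 shared 64% and 95.3%. HI 2 and HI 7 shared 11.6% and 39.9% of theirs. Of the higher genes, HI 2 and MOD 12 shared 54.3% and 86.7%. The pairs were picked after the values had been seen and are described without a test.

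In the 41 genes lower in both HI 7 and MOD 4, the median value was 0.311 times that of the other libraries in HI 7 and 0.413 times in MOD 4. In the other 28 libraries the median difference ran from -0.70 in MOD 2 and -0.54 in HI 6 to 0.40 in HI 3 on the log2 scale. The 41 lay at ranks 10 to 192 and 14 of them were in the first 50. They took 1.59% of the sum in HI 7, 2.08% in MOD 4 and 5.48% in HI 3. The gene with the largest mean log2 fall over the pair was ENSBTAG00000015214, at 78.8 in HI 7 and 119 in MOD 4. It lay between 422 and 1549 in the 25 libraries, with a median of 968.

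In the 20 genes lower in both HI 2 and MOD 12, the median value was 0.185 times that of the others in HI 2 and 0.407 times in MOD 12. They also stood low in MOD 2, MOD 4 and HI 7, at medians of 0.585, 0.629 and 0.654 times the others. The example with the largest fall, ENSBTAG00000009260, stood at 49.8 in HI 2 and 139 in MOD 12. It was at 432 in MOD 2, 436 in HI 7 and 468 in MOD 4, and at 472 to 942 in the 25 libraries. Of these 20 genes, 3 were also among the 41. The same overlap over all genes tested is not given, so this count is not read as a result. The 14 genes higher in the pair HI 2 and MOD 12 stood at a median of 3.55 and 2.54 times the others. The next highest libraries for them were MOD 2 and MOD 1, at medians of 1.63 and 1.55 times the others. Of the 14 genes, ENSBTAG00000009908 was at 3509 in HI 2 and 1815 in MOD 12, against 415 to 969 in the 25 libraries. What sets these libraries apart was not tested, and the labels give no batch, dissection or RNA quality for each calf.

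The 5 genes with the largest SD showed different forms of spread. ENSBTAG00000017280, at rank 193, had an SD of 1.02 that came from 1 calf. It ranged from 272 to 624 in HI, with a median of 442. In MOD it ranged from 324 to 670 outside MOD 2, which stood at 18663, or 27.8 times the next library. Its SD was 0.26 in the 25 libraries.

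ENSBTAG00000022890 and ENSBTAG00000006977 varied in many calves, and in the same ones. ENSBTAG00000022890 ranged from 555 to 13175 in HI (median 1494) and from 813 to 6099 in MOD (median 1491). ENSBTAG00000006977 ranged from 474 to 7266 in HI (median 1775) and from 909 to 5720 in MOD (median 1659). For both genes the same 6 libraries were highest, namely HI 1, HI 3, HI 4, HI 9, HI 10 and MOD 14. In these 6 their lowest values were 3707 and 3633, and in the other 24 libraries their highest were 2821 and 2793. HI 2 and HI 7 were the lowest libraries for both.

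Although 5 of those 6 libraries were HI, the medians of the groups were nearly equal and the difference was within the spread. It was 0.34 (SE 0.36) for ENSBTAG00000022890 (limma p = 0.341, BH-adjusted p 1.00), the highest of any member in that fit. Without HI 3 it was 0.15, and without the 5 libraries it was 0.59 (limma p = 0.117, BH-adjusted p 1.00). It was 0.70 in edgeR quasi-likelihood (p = 0.0776) and 0.70 in DESeq2 (p = 0.0580), and neither passed the correction. For ENSBTAG00000006977 it was 0.22 (SE 0.31, limma p = 0.487, BH-adjusted p 1.00) and 0.46 over the 25. It fell to 0.09 without HI 3, and leaving out any 1 library gave 0.09 to 0.37. edgeR quasi-likelihood gave 0.42 (p = 0.192) and DESeq2 gave 0.43 (p = 0.173) for it.

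ENSBTAG00000015214 and ENSBTAG00000051072 stood low in a few libraries. ENSBTAG00000015214 had an SD of 0.92 over 30 libraries and 0.45 over 25. ENSBTAG00000051072 stood at 202 in HI 7, 309 in HI 2, 428 in MOD 4 and 710 in MOD 12, and its medians were 1698 in HI and 1756 in MOD. Its SD was 0.88 over 30 libraries and 0.30 over 25.

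**Figure D4:**
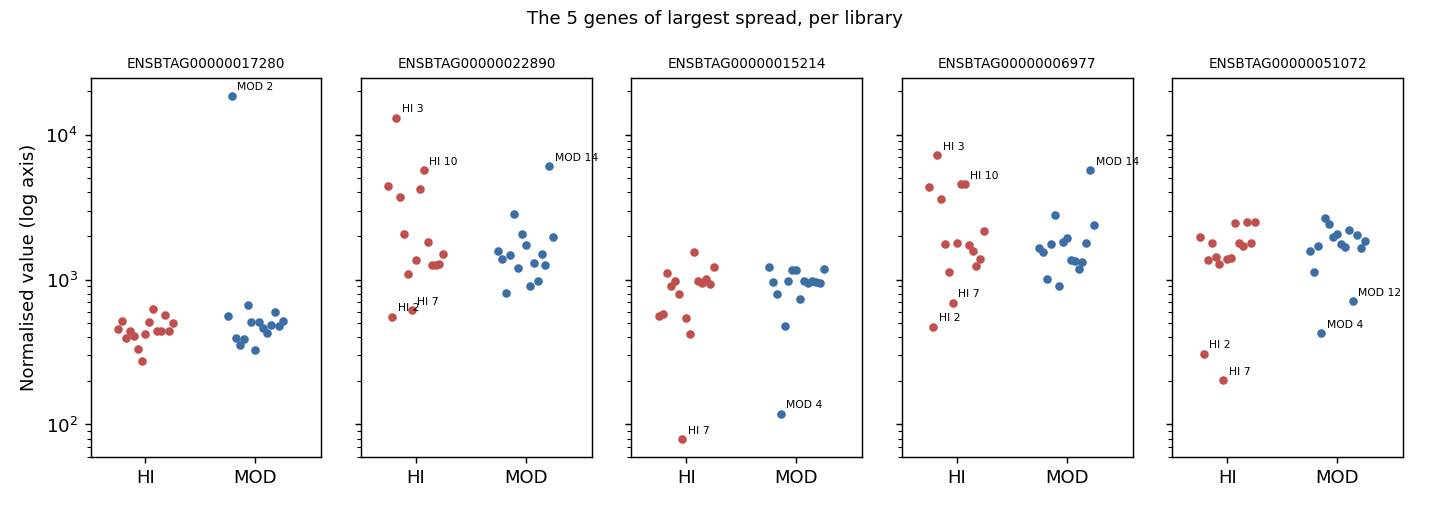
Normalised value (vertical axis, log scale) of the 5 genes with the largest SD in every library, by group, with some of the farthest libraries named. ENSBTAG00000017280 is set apart in MOD 2 alone at 18663, and ENSBTAG00000015214 is low in HI 7 and MOD 4 at 78.8 and 119.

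Over all 30 libraries the smallest SDs were 0.11 for ENSBTAG00000020873 and 0.12 for ENSBTAG00000021499. Over the 25 libraries they were 0.08 for ENSBTAG00000020308 and 0.08 for ENSBTAG00000004258, with ENSBTAG00000020873 at 0.09 and ENSBTAG00000021499 at 0.11. ENSBTAG00000021499 ranged from 1051 to 1473 over the 30 libraries, a ratio of 1.40, at medians of 1205 in HI and 1229 in MOD.

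Between diets, limma called 0 of the 200 genes (adjusted p below 0.1 with a fold above 1.5), and the background over all 15757 genes tested was 0%. At an unadjusted limma p under 0.05 there was 1 member, or 0.5%, against 0.628% of all genes tested, so the share of members was close to the background. That background was itself far below the nominal 0.05, and the backgrounds of the other fits given here were below it too. A low count is therefore not read as proof of equal values, and why small p-values were so few was not tested. edgeR quasi-likelihood on recovered reads called 0 members, against 0.0756% of its 15875 genes, and 2 members against 2.43% of genes had an unadjusted p under 0.05. Without MOD 2 it called 0 members and 0% of genes, and 1 member against 0.71% of genes had an unadjusted p under 0.05. DESeq2 called 0 members and 0% of genes, with 2 members against 1.88% of genes at an unadjusted p under 0.05. limma with sample quality weights called 0 members and 0% of genes, with 3 members against 3.56% at that level. Without the 5 libraries limma called 0 members and 0% of genes, with 1 member against 2.3%. The ranges of the 2 groups overlapped for all 200 genes, and the percentage of tested genes without overlap was 0.

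The median limma difference over the 200 genes was -0.01 on the log2 scale, as it was over all genes tested. TMM scaling draws the bulk of the genes together between libraries, so a small median over all genes follows in part from it. Without the 5 libraries the median was 0.0054 over all genes tested and -0.029 over the 200. With CPM and no scaling factors it was 0.0052 over all genes tested and 0.0066 over the 200. The extremes were -0.43 and 0.34 in limma, -0.22 and 0.59 without the 5 libraries, -1.92 and 0.70 in edgeR quasi-likelihood, and -0.35 and 0.70 in DESeq2. In limma no member had a fitted fold over 1.5, against 0.514% of genes tested, and without the 5 libraries ENSBTAG00000022890 did, against 0.309%. That gene also had a fitted fold over 1.5 in edgeR quasi-likelihood and DESeq2, and ENSBTAG00000017280 did in edgeR. For 187 of the 200, or 93.5%, the whole 95% interval of the difference lay within a fold of 1.5 either way, against 77.3% of genes tested. Without the 5 libraries this held for 197 members, or 98.5%, against 88.7%. The median half-width of the interval was 0.27 over 30 libraries and 0.18 over 25.

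Of the 200 genes 85, or 42.5%, had a fitted value higher in HI, against 45.3% of genes tested. That count moved with single libraries. It was 144 without HI 7 and 54 without MOD 4. In the 25 libraries it was 71, or 35.5%, against 52.3%. With CPM and no scaling factors it was 113, so no direction is drawn for the set.

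**Figure D5:**
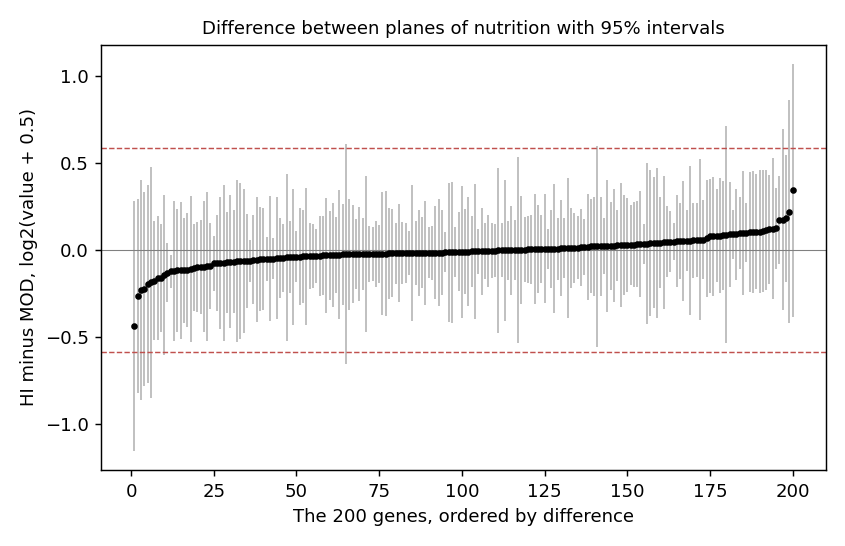
HI minus MOD difference in log2(value + 0.5) for each of the 200 genes, ordered by size (horizontal axis), as points with 95% limma intervals. Dashed lines mark a fold of 1.5 either way, and 187 of the intervals lie wholly between them.

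The 1 member at an unadjusted p under 0.05 was ENSBTAG00000020873, which also had the smallest SD over 30 libraries. It ranged from 406 to 527 in HI, with a median of 491, and from 468 to 597 in MOD, with a median of 528. All 15 HI calves were below the median of MOD, while the ranges overlapped between 468 and 527. The difference was -0.12 with a standard error of 0.05 and a 95% interval of -0.22 to -0.03 (limma p = 0.0139, BH-adjusted p 1.00). Over the 25 libraries it was -0.09 (limma p = 0.0293, BH-adjusted p 1.00). In DESeq2 it had the smallest p of the members (p = 0.00121, BH-adjusted p 1.00). The difference was under a fold of 1.5 and did not pass the correction under any setting.

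ENSBTAG00000018588 came next among those lower in HI. It ranged from 627 to 792 in HI (median 727) and from 674 to 820 in MOD outside MOD 2, which stood at 1556. The difference was -0.13 (SE 0.08, limma p = 0.128, BH-adjusted p 1.00). In HI, 12 of 15 calves fell short of the median of MOD. The difference was -0.06 without MOD 2, and over the 25 libraries it was -0.03 (limma p = 0.499).

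On the higher side the members with the smallest p in the limma fit over 30 libraries were ENSBTAG00000001961 and ENSBTAG00000009887. ENSBTAG00000001961 ranged from 695 to 1680 in HI (median 1116) and from 609 to 1459 in MOD (median 1085). It differed by 0.17 (SE 0.12, limma p = 0.168, BH-adjusted p 1.00). In HI, 8 of 15 calves exceeded the median of MOD. The difference was 0.10 over the 25 libraries (limma p = 0.273) and 0.05 with sample quality weights (limma p = 0.490). ENSBTAG00000009887 ranged from 876 to 1449 in HI (median 1000.0) and from 838 to 1174 in MOD (median 977), with HI 7 the highest. It differed by 0.09 (SE 0.07, limma p = 0.192, BH-adjusted p 1.00), with 9 HI calves above the median of MOD. Without HI 7 the difference was 0.06, and over the 25 libraries it was 0.07 (limma p = 0.265). For both, the groups overlapped over most of their range. Other fits put another member first on this side. ENSBTAG00000043563, at rank 9, differed by 0.18 over 30 libraries (limma p = 0.317) and by 0.23 over the 25 (limma p = 0.0554). With sample quality weights it differed by 0.24 (limma p = 0.0174), the 1 member higher in HI at an unadjusted p under 0.05 in that fit. It did not pass the correction in any of these fits.

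The lowest fitted difference belonged to ENSBTAG00000017280, the gene set by MOD 2. It was -0.43 in limma with a 95% interval of -1.15 to 0.28 (p = 0.227, BH-adjusted p 1.00). In edgeR quasi-likelihood, which models the reads rather than their logarithm, it was -1.92 (p = 0.00163, adjusted p = 0.453). In DESeq2, which replaces outlying counts, it was -0.07 (p = 0.492, BH-adjusted p 1.00). Over the 25 libraries limma gave -0.07 (p = 0.481), so the size of this difference rested on 1 calf.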

How the data were processed

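PolyA RNA of 30 arcuate nucleus samples was sequenced as stranded paired-end libraries. Per the labels and methods, the authors trimmed adapters (cutadapt 2.6), aligned to ARS-UCD1.2 and counted reads per gene (STAR 2.6.1), and used edgeR. These versions are those of the submitters' processing notes, and the paper gives other versions of both tools. The deposited values are a normalised signal. In every column, 100% of values above 0 were integer multiples of the lowest (tolerance 0.01 reads), so reads were recovered by division, and TMM-scaled CPM of these reads gave the deposited signal back.

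Groups came from the treatment label and replicates were numbered in accession order, so numbers pair nothing. The members, gene rules and tests were chosen with earlier results of these data known. The main test was limma with a mean-dependent prior variance on log2(value + 0.5), two-sided, over genes reaching 0.5 in 15 or more libraries, and p-values were adjusted over all genes tested by Benjamini-Hochberg. All 200 members passed this filter. Differences on this scale understate changes of low genes. Named genes were the 5 of highest median, the 5 of largest SD, the 2 of smallest p in each direction and those beside the limit. The steadiest genes, the examples of library pairs and ENSBTAG00000043563 were chosen after their values were seen. Alternatives were other pseudocounts, filters, scalings and tests, other sizes of the set and leaving out libraries. Fits were tested on simulated counts. Farm and sire are not in the labels and entered no fit. Reads shared between near-identical or overlapping genes, gene length and GC content were not checked. Tools were R 4.3.3, limma 3.58.1, edgeR 4.0.16, DESeq2 1.42.0, Python 3.11.15, numpy 2.4.6, pandas 2.3.3 and matplotlib 3.10.9.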

Additional observations from a re-analysis of the deposited data

How the results depend on the processing

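The count of called members was 0 under every alternative run, including each of the 30 fits without 1 library. The count at an unadjusted p under 0.05 was 1 in limma, against 0.628% of all genes tested. In that fit it was 0 among the 100 highest genes and 2 among the 400 highest. It was 2 with edgeR quasi-likelihood against 2.43% of genes, 2 with DESeq2 against 1.88%, and 3 with sample quality weights against 3.56%. It was 0 with CPM and no scaling factors and 4 with limma-voom and weights. Leaving out 1 library gave 1 to 3, with 3 without HI 2. For CPM, limma-voom and the fits without 1 library the share over all genes is not given, so those counts are not read as a change in the members. The count of members higher in HI was 54 to 144 when 1 library was left out. The share of the column sum was 23.1% for the 100 highest genes and 36.4% for the 400 highest, as the size of the set requires, and 28.7% for the 200 highest by mean, which shared 183 genes with the set. The number of members among the 200 highest of every library was 97 without HI 2, MOD 2 and MOD 12 and 131 over 25 libraries, where fewer lists entered, and 52 to 63 without 1 of those 3. The difference in share ran from 0.305 to 1.57 points without 1 library. The 4 members picked by smallest p in the main fit kept their direction in all 44 settings each, with adjusted p from 0.749 to 1. These settings reuse the calves that picked the genes, so a kept direction is no separate support. The size moved, from -0.13 to -0.03 over the 25 libraries for ENSBTAG00000018588. For ENSBTAG00000001961 it moved from 0.17 to 0.05 with sample quality weights. Fits without HI 7 and MOD 4, without 5 libraries, and of quasi-likelihood without MOD 2 were chosen after seeing the data. Causes were not tested. No paired analysis was possible because accession order alone fixed the numbering. Counting error made up at most 1.56% of the variance between libraries for any of the 200 genes. The median half-width of their limma intervals was 0.27 over all 30 libraries and 0.18 without the 5 libraries. These intervals are computed from the SE, whose median over the members was 0.134 over all 30 libraries and 0.0870 without the 5. The libraries left out were those of lowest weight, so a fall follows in part from the choice.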
